A study of Mus musculus with 20 samples.

Results

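Fos, Fosb, Fosl1, Fosl2, Jun, Junb, Jund, Atf3, Egr1 and Egr3, 10 immediate early transcription factor genes of the FOS, ATF3, JUN and EGR families, were measured in the uterus of pregnant mice on day 3.5, the evening before implantation. They were taken by gene symbol, and all 10 were found among the 45777 genes listed. Of these, 9 were among the 18706 genes that lay above 0 in every library and were tested, and the remaining gene, Fosl1, was listed at 0 in 2 libraries and entered only a fit with a relaxed filter. RNA-seq of whole uterine tissue was available for 20 wild-type B6D2F1 females of 8 to 12 weeks, 5 in each of 4 groups, with 1 library from 1 uterine horn of each mouse. All had mated, the day of the copulation plug was day 0.5, and all uteri were collected at 18:00 on day 3.5. The control group had no treatment stated in the sample labels. The IF group (implantation failure) was given 3 mg/kg RU486 subcutaneously at 9:00 on day 3.5, as were the PBMC and PBMC-hCG groups. RU486 (mifepristone) blocks the progesterone receptor and the glucocorticoid receptor throughout the body, so the blockade in this model was not limited to the uterus. On day 1.5, mice of the PBMC group had also received 50000 peripheral blood mononuclear cells per uterine horn, which came from non-pregnant mice and had been cultured for 24 hours, and mice of the PBMC-hCG group had received the same number of cells cultured with 5 IU/mL human chorionic gonadotropin (hCG). Mice given medium without cells were not analysed here, so the effect of the cells and that of the intrauterine injection cannot be told apart.

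Immediate early genes are switched on within minutes of a growth factor, hormone, cytokine or mechanical signal, without new protein synthesis, and their transcripts decay quickly. FOS proteins pair with JUN proteins through a basic leucine zipper to form AP-1, whose makeup depends on which members are present, while FOSL1 and FOSL2 lack the strong activation domain of FOS, JUNB often weakens and JUND often moderates the action of JUN, and ATF3 is a stress-inducible partner that commonly represses. EGR proteins bind GC-rich DNA through zinc fingers. In the uterus, FOS, JUN and EGR1 are known as early responders to estrogen, and EGR1 and FOSL2 have been linked with stromal decidualization and with progesterone receptor action.

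Values are TPM, a transcript abundance scaled by transcript length and by library, so that levels can be set beside each other between genes. TPM totals lay between 999989 and 999999, the number of reads behind a value is therefore unknown, and 22702 to 24097 genes were above 0 per library. The median correlation of a library with the others of its group was 0.963 to 0.990, and the lowest belonged to control replicate 2, which also had the highest sum of the adipose markers Adipoq and Plin1 (55.9 TPM, against at most 6.19 TPM in any library of the other groups). Calls of the members that were lost without that library are given with and without it. Over all genes, the 2509 higher and 1595 lower calls between IF and control became 5012 in all without it, and the 3772 higher and 2169 lower calls between PBMC-hCG and control became 7513 in all. No sequencing batch or date was given in the sources used here.

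Ranked by the mean over all 20 libraries, Egr1 was the most abundant of the 10 genes at 205 TPM, followed by Junb at 144 TPM, Jund at 125 TPM, Jun at 112 TPM, Fosl2 at 101 TPM and Fos at 98.3 TPM. Atf3 lay at 16.2 TPM, Egr3 at 7.55 TPM and Fosb at 5.67 TPM, and Fosl1 was near the floor at 0.600 TPM. The ranges over the 20 libraries overlapped between all neighbours in this order. The genes also differed in how much they varied. Between the lowest and the highest of the 20 libraries, Fosb ranged over 28.5-fold, Fos over 25.4-fold, Egr3 over 12.9-fold and Egr1 over 10.1-fold, whereas Jun ranged over 2.14-fold and Jund over 1.66-fold. Within groups, the pooled SD on the log2 scale was 0.17 for Jund, 0.25 for Jun and 0.31 for Fosl2, against 0.91 for Egr1, 0.95 for Fos and 1.32 for Fosb, so a difference of the same size was easier to detect in the first set than in the second.

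**Figure D1:**
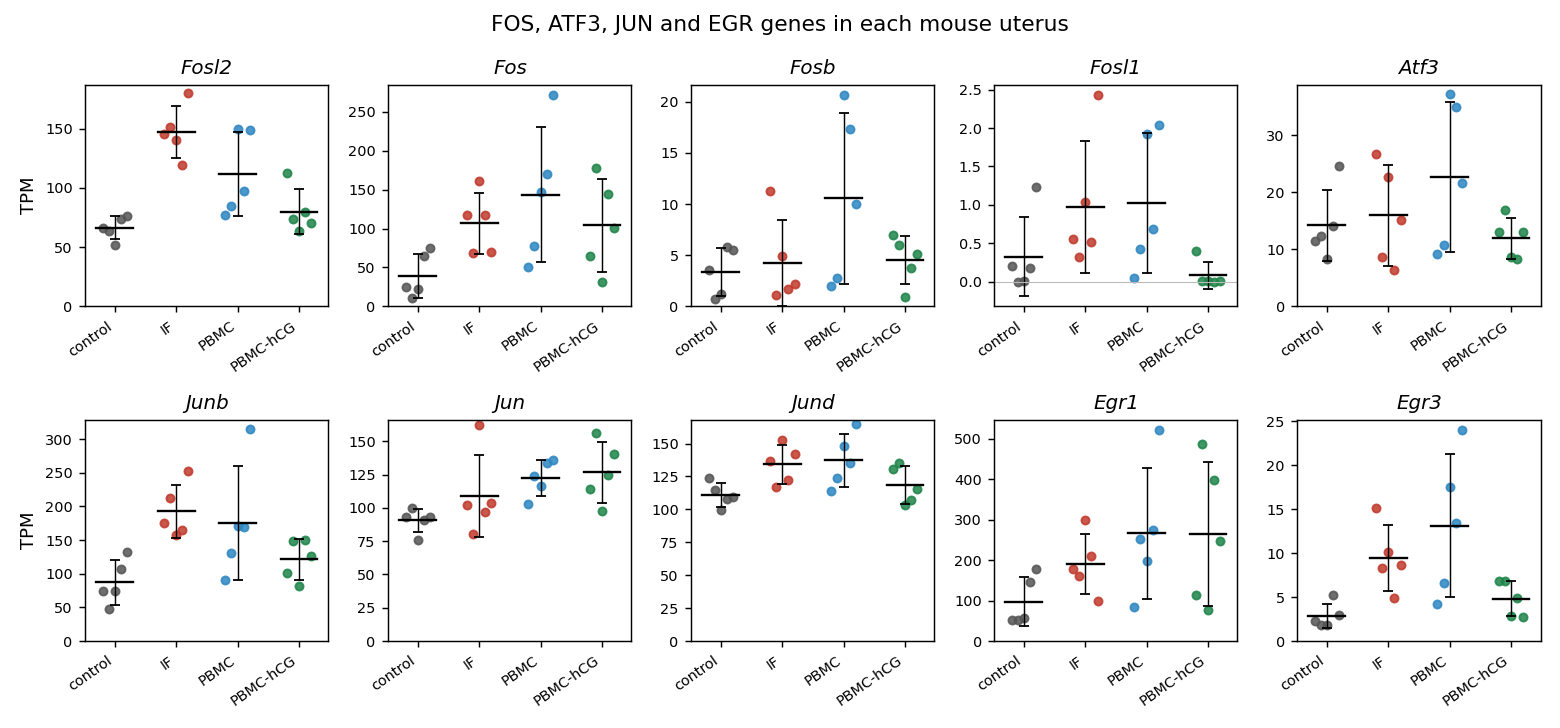
Level of each of the 10 genes in TPM (y axis, linear) in each mouse (points) of the 4 groups (x axis), with the group mean (thick bar) and SD (thin bars, n = 5 mice). Fosl2 and Junb in IF mice lie wholly above the control mice and wholly above the PBMC-hCG mice, whereas the points of Egr1, Fosb and Atf3 overlap widely between groups.

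In IF mice, 4 of the 9 tested genes rose relative to control, namely Fosl2, Junb, Fos and Egr3, against 13.4% of all 18706 tested genes that were higher at the same threshold (limma, Benjamini-Hochberg adjusted p under 0.05). None of the 9 was called lower. The same genes also met a fold of at least 2 with a raw p-value under 0.05, which 2.12% of all tested genes met upward, and Fosl2 and Junb were the 2 genes whose IF values lay entirely above the control values, against 8.55% of all tested genes. The median log2 fold change of the 9 genes was 1.09, beside 0.02 over all tested genes. In whole tissue, more RNA per cell and more cells of a type that expresses the gene cannot be told apart. Egr1, Jun, Jund, Fosb and Atf3 did not pass the test.

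**Figure D2:**
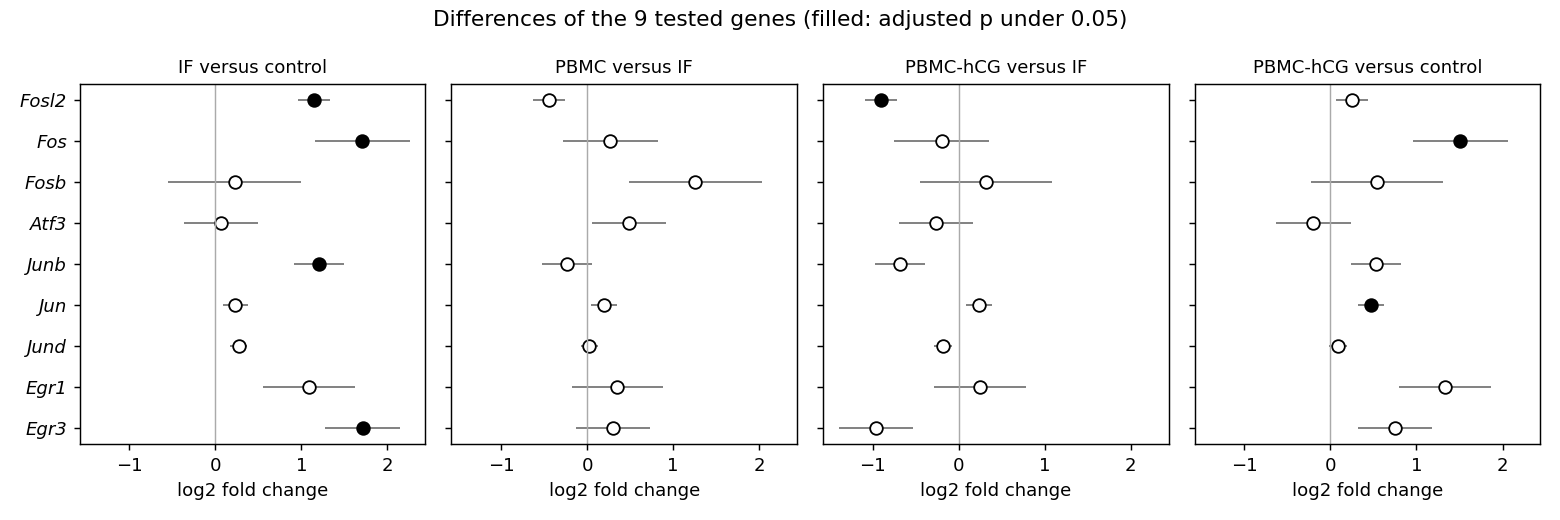
Log2 fold change (x axis) of each of the 9 tested genes (y axis) in 4 of the comparisons, with standard errors as bars from a limma fit of all 20 libraries, and filled points where the adjusted p-value was under 0.05. Fosl2 is the gene filled both upward in IF versus control and downward in PBMC-hCG versus IF.

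Fosl2 (NCBI gene 14284, chromosome 5, 32136472 to 32157840 on GRCm38), which encodes the FOS family protein FRA2, had the lowest adjusted p of the 9 genes. It was at 66.3, 63.4, 52.0, 73.7 and 76.1 TPM in control replicates 1 to 5 and at 146, 151, 140, 119 and 180 TPM in the 5 IF replicates. Every IF mouse lay above every control mouse, and the lowest IF value exceeded the highest control value by a wide margin. The means were 66.3 ± 9.52 and 147 ± 22.1 TPM (SD, n = 5 each), a log2 fold change of 1.15 (standard error, SE, of 0.19, adjusted p = 0.000201). In the PBMC group Fosl2 was at 77.3, 84.5, 150, 97.2 and 149 TPM, and in the PBMC-hCG group at 112, 73.4, 63.2, 79.4 and 70.5 TPM. All 5 PBMC-hCG mice lay below all 5 IF mice, and PBMC-hCG replicate 1 stood nearest to them, while PBMC mice fell partly within and partly below the IF range. PBMC-hCG mice had a mean of 79.8 ± 19.1 TPM and fell by 0.90 against IF on the log2 scale (SE 0.19, adjusted p = 0.0258). With a fold of 0.54, the fall did not meet the threshold of at least 2-fold that the rise in IF mice met. This fall was called in all 9 other settings of the fit, but not without IF replicate 2, 4 or 5 or PBMC-hCG replicate 2, 3, 4 or 5, where the log2 fold change lay between -0.97 and -0.82 and the adjusted p between 0.0534 and 0.0919. Relative to control, PBMC-hCG mice had a log2 fold change of 0.25 (SE 0.19, adjusted p = 0.325). The PBMC mean of 112 ± 35.2 TPM had a log2 fold change of -0.44 against IF (SE 0.19, adjusted p = 0.701) and of 0.70 against control (adjusted p = 0.0112). In the order IF, PBMC, PBMC-hCG and control, no difference between neighbours passed adjustment.

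Fos (NCBI gene 14281, chromosome 12, 85473890 to 85477274), the founding member of the family, varied far more from mouse to mouse. In the 5 controls it was at 24.6, 10.7, 21.8, 65.1 and 74.3 TPM, and in the IF replicates at 118, 68.1, 161, 117 and 69.2 TPM. In 3 of the 5 IF mice Fos lay above the whole control range, and the other two overlapped with control replicate 5. The log2 fold change was 1.71 (SE 0.55, adjusted p = 0.0325). Without control replicate 2, which had the lowest value, it was 1.33 with an adjusted p of 0.0754, and the call was also lost without control replicate 1 or 3 or IF replicate 1, 3 or 4 (adjusted p of 0.0590 to 0.0756). Fos was at 50.6, 77.8, 147, 170 and 272 TPM in PBMC mice and at 65.0, 178, 31.0, 145 and 101 TPM in PBMC-hCG mice. Both groups spanned the IF range on either side, and neither passed the test against IF (log2 fold changes of 0.27, adjusted p = 0.939, and -0.20, adjusted p = 0.829). Against control, Fos rose in both, with log2 fold changes of 1.98 (adjusted p = 0.0160) in PBMC mice and 1.51 (adjusted p = 0.0436) in PBMC-hCG mice. The call in PBMC-hCG mice was lost without control replicate 1, 2 or 3 or PBMC-hCG replicate 2, 4 or 5 (adjusted p of 0.0792 to 0.115, and 0.102 without control replicate 2). It was also lost in 4 of the 9 other settings of the fit (adjusted p of 0.0501 to 0.0816).

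Fosb (NCBI gene 14282, chromosome 7, 19302696 to 19310118), which encodes a close relative of FOS, was low and the most variable. It lay at 0.724 to 5.79 TPM in control mice (median 3.55 TPM), 1.07 to 11.3 TPM in IF mice (median 2.22 TPM), 2.01 to 20.6 TPM in PBMC mice (median 9.98 TPM) and 0.867 to 6.97 TPM in PBMC-hCG mice (median 5.09 TPM). All groups overlapped, and no comparison passed the test. Between IF and control the log2 fold change was 0.22, and without control replicate 2 it was -0.20 (adjusted p of 0.877 and 0.886). The value nearest to passing was PBMC against control, with a log2 fold change of 1.48 (SE 0.77, adjusted p = 0.198). Fosl1 (NCBI gene 14283, chromosome 19, 5447698 to 5455938), which encodes FRA1, was at 0.200, 0, 0.0115, 0.178 and 1.23 TPM in the controls, 0.552, 0.323, 1.04, 0.515 and 2.43 TPM in IF mice, 0.0457, 0.427, 1.92, 0.681 and 2.05 TPM in PBMC mice, and 0.394, 0.0021, 0.00183, 0 and 0.00515 TPM in PBMC-hCG mice. In 4 of the 5 PBMC-hCG mice it was thus at or close to 0, below every IF mouse. With the filter relaxed to genes above 0 in at least 1 library, its log2 fold change between PBMC-hCG and IF was -2.63 (adjusted p = 0.0634) and between IF and control 1.73 (adjusted p = 0.183). Fosl1 overlaps Ccdc85b, whose mean was 29.3 TPM, and whether the counting used strand was not stated, so these low values are uncertain.

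Sequence upstream of the start site is shown for Fosl2 and Junb, whose IF values did not overlap the control values, and for Fos, the most variable of the 3, to let their promoters be compared. RefSeq promoters of GRCm38.p6 were matched for 7 of the 10 genes and not for Fosl1, Egr1 and Egr3. The 250 bases before the start site are given 5′ to 3′ in the sense of the gene, with matches to 5 motifs in capitals. The motifs were searched on both strands and were the AP-1 site TGANTCA, the cyclic AMP response element TGACGTCA, the TATA box TATAAA, the EGR site GCGNGGGCG and the CArG box of serum response factor, and no match overlapped another.
Fos (chr12:85473640-85473889, + strand): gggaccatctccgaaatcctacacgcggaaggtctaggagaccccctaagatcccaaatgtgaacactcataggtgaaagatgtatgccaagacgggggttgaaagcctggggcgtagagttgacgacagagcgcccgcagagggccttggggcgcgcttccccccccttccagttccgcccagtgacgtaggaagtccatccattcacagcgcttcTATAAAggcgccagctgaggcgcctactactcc
Fosl2 (chr5:32136222-32136471, + strand): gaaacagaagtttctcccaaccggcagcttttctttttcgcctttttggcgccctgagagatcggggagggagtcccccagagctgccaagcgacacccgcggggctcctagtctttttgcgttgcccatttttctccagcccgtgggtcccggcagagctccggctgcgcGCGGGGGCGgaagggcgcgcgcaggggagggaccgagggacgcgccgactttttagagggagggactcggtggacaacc
Junb (chr8:84978749-84978998, - strand): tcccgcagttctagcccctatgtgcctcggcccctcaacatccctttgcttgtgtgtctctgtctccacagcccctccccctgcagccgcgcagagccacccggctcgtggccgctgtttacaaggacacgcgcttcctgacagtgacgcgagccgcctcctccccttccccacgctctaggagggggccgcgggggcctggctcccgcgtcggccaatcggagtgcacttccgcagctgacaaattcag
The Fos window held TATAAA beginning 33 bases before the start, a motif present in 12.4% of 32851 promoters of that length. The Fosl2 window held GCGGGGGCG beginning 79 bases before the start, and the Fosb window the same letters at 50 bases, where 4.70% of promoters held the motif GCGNGGGCG. The Fosb window (chr7:19310046-19310295, - strand) overlaps the gene as positioned above, which extends to 19310118. Its 50 bases are thus counted from a start site inside that span. Neither TGANTCA, TGACGTCA nor the CArG box was matched in any of the 7 windows, against 6.75%, 1.55% and 1.47% of all promoters, which says only that these letters are absent from these 250 bases. The windows of Fos, Fosl2 and Junb were 58.4%, 64.4% and 66.4% G and C, and the median of all promoters was 52.4%.

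Among JUN genes, Junb was the one that rose in IF mice. Junb (NCBI gene 16477, chromosome 8, 84976909 to 84978748) was at 74.8, 47.4, 74.3, 106 and 132 TPM in controls, against 176, 212, 158, 165 and 252 TPM in IF mice. No IF value reached down to the control range, and its log2 fold change was 1.21 (SE 0.29, adjusted p = 0.00559). In PBMC mice it was at 90.6, 131, 170, 170 and 315 TPM, and in PBMC-hCG mice at 101, 149, 81.1, 150 and 126 TPM. All PBMC-hCG values lay below all IF values, as did those of Fosl2, which makes 2 of the 9 genes beside 2.19% of all tested genes with such a separation downward. The log2 fold change of Junb between PBMC-hCG and IF was -0.68 (SE 0.29), and its adjusted p of 0.106 did not pass. When only these 2 groups entered the fit, it passed at 0.0438. PBMC mice had a log2 fold change of -0.24 against IF (adjusted p = 0.886) and of 0.97 against control (adjusted p = 0.0232). The latter call was lost without PBMC replicate 5 (adjusted p = 0.0608) or control replicate 2 (adjusted p = 0.0521). It was also lost when only the PBMC and control groups entered the fit (adjusted p = 0.0830).

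Jun (NCBI gene 16476, chromosome 4, 95049036 to 95052222), the AP-1 subunit with the strongest activation domain of its family, stayed in a narrow range. It was at 93.3, 99.6, 75.7, 90.8 and 93.5 TPM in the controls, 102, 80.5, 162, 97.2 and 103 TPM in IF mice, 103, 124, 117, 134 and 136 TPM in PBMC mice, and 114, 156, 97.7, 125 and 140 TPM in PBMC-hCG mice. IF replicate 3 stood high while IF replicate 2 was at the level of the controls, and the log2 fold change between IF and control was 0.23 (SE 0.15, adjusted p = 0.295). PBMC mice lay wholly above the controls for Jun, as for Fosl2, and the share of all tested genes with such a separation was not counted. Against control, Jun rose by 0.43 on the log2 scale (SE 0.15, adjusted p = 0.0480) in PBMC mice and by 0.47 (SE 0.15, adjusted p = 0.0222) in PBMC-hCG mice. The former call was lost without each mouse except control replicate 2 and PBMC replicate 1 (adjusted p of 0.0688 to 0.120) and in 5 of the 9 other settings of the fit (0.0592 to 0.0882). The latter was lost without control replicate 3 or PBMC-hCG replicate 2 or 5 (adjusted p of 0.0543 to 0.0668) and in 1 of the 9 other settings (0.0535). Neither group passed the test against IF (adjusted p = 0.802 for PBMC and 0.262 for PBMC-hCG). Jund (NCBI gene 16478, chromosome 8, 70697739 to 70700616), the JUN gene with the steadiest expression in most tissues, was at 99.5 to 124 TPM in control mice (median 110 TPM), 117 to 153 TPM in IF mice (median 137 TPM), 114 to 165 TPM in PBMC mice (median 135 TPM) and 103 to 135 TPM in PBMC-hCG mice (median 115 TPM). Its log2 fold change was 0.27 between IF and control (SE 0.10, adjusted p = 0.0624) and 0.30 between PBMC and control (SE 0.10, adjusted p = 0.0446). The call in PBMC mice was lost without control replicate 3, 4 or 5 or PBMC replicate 3, 4 or 5 (adjusted p of 0.0734 to 0.112) and in 6 of the 9 other settings of the fit (0.0591 to 0.123).

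Atf3 (NCBI gene 11910, chromosome 1, 191170296 to 191183333), the stress-inducible partner of JUN proteins, showed no difference that passed. It was at 8.22 to 24.7 TPM in control mice (median 12.4 TPM), 6.34 to 26.8 TPM in IF mice (median 15.2 TPM), 9.11 to 37.3 TPM in PBMC mice (median 21.7 TPM) and 8.29 to 16.9 TPM in PBMC-hCG mice (median 13.0 TPM). IF mice lay on both sides of the control range, with a log2 fold change of 0.06 (SE 0.43, adjusted p = 0.942).

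Of the EGR genes, Egr3 rose in IF mice and Egr1, at a higher level, did not pass. Egr3 (NCBI gene 13655, chromosome 14, 70077317 to 70082613), a zinc finger factor of the family that is best known from muscle spindles and lymphocytes, was at 2.29, 1.87, 1.88, 5.20 and 2.96 TPM in controls, against 15.1, 8.26, 10.1, 4.85 and 8.68 TPM after RU486 alone. Of the IF mice, 4 lay above all controls and IF replicate 4 lay just below control replicate 4. The log2 fold change was 1.71 (SE 0.43, adjusted p = 0.00779). PBMC mice were at 4.18, 6.55, 17.5, 13.4 and 24.04 TPM and PBMC-hCG mice at 6.80, 6.78, 2.89, 4.87 and 2.74 TPM. PBMC mice spread beyond the IF range on both sides, while PBMC-hCG mice overlapped with the controls and with the lowest IF mouse only. Against IF, the log2 fold change of Egr3 in PBMC-hCG mice was -0.96 (SE 0.43, adjusted p = 0.121), and against PBMC mice it was -1.27 (SE 0.43, adjusted p = 0.271). In PBMC mice Egr3 rose by 2.02 against control (SE 0.43, adjusted p = 0.00264).

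Egr1 (NCBI gene 13653, chromosome 18, 34861207 to 34864956), the most abundant of the 10 genes and an effector of estrogen and growth factor signals, was at 51.8, 52.9, 58.1, 146 and 179 TPM in controls, against 178, 162, 300, 211 and 98.0 TPM after RU486 alone. PBMC mice were at 84.9, 252, 197, 274 and 523 TPM and PBMC-hCG mice at 113, 487, 77.6, 400 and 248 TPM. Control mice fell into 3 low and 2 higher values, and each other group had mice above and below the highest control. The log2 fold change between IF and control was 1.09 (SE 0.53, adjusted p = 0.158). It was 1.44 for PBMC (SE 0.53, adjusted p = 0.0657) and 1.33 for PBMC-hCG (SE 0.53, adjusted p = 0.0619), both against control. Against IF it was 0.35 for PBMC (adjusted p = 0.911) and 0.25 for PBMC-hCG (adjusted p = 0.772). With a mouse left out, the differences from control passed in 2 of 10 fits for PBMC mice and in 3 of 10 for PBMC-hCG mice. The highest adjusted p of these fits was 0.151 for PBMC and 0.168 for PBMC-hCG mice. Of the 9 other settings of the fit, 1 passed for each group. PBMC mice passed without control replicate 5 (adjusted p = 0.0389) or PBMC replicate 1 (0.0241), and PBMC-hCG mice without control replicate 5 (0.0379) or PBMC-hCG replicate 1 (0.0399) or 3 (0.0227).

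Taking the cell treatments as a whole, none of the 9 genes was called between PBMC and IF in limma's test, where 0% of all tested genes were called in either direction. Fosl2 was the 1 member with a raw p-value under 0.05 (0.0270), beside 1271 of all tested genes. Between PBMC-hCG and IF, 1 of the 9 genes, Fosl2, fell, against 5.99% of all tested genes, and none was called higher. The median log2 fold change of the 9 genes was -0.20, and that of all tested genes was 0.05. The direct comparison of PBMC-hCG with PBMC called none of the 9 genes, beside 0.0107% of all tested genes. Egr3 and Fosl2 had raw p-values under 0.05 there, as did 3024 of all tested genes, with adjusted p-values of 0.271 and 0.285. A difference between the 2 kinds of cell treatment was therefore not shown for any of these genes. Relative to control, 6 of the 9 genes were higher in PBMC mice (Fos, Fosl2, Jun, Junb, Jund and Egr3; 12.8% of all tested genes) and 2 of the 9 were higher in PBMC-hCG mice (Fos and Jun; 20.2% of all tested genes). The count of 6 was 4 in 5 of the 9 other settings of the fit and 5 in another, with Fos, Fosl2 and Egr3 called in all of them. The median log2 fold changes of the 9 genes were 0.97 and 0.53, beside 0.05 and 0.08 over all tested genes. The IF comparisons share the IF mice and the control comparisons share the control mice, so their values are not independent of each other.

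Summed within families, FOS transcripts (Fos, Fosb, Fosl1 and Fosl2) came to 109 ± 39.1 TPM in control, 259 ± 33.7 TPM in IF, 266 ± 122 TPM in PBMC and 188 ± 61.8 TPM in PBMC-hCG mice (SD, n = 5 each). Fosl2 made up 64.7 ± 15.1% of that sum in control, 57.6 ± 11.4% in IF, 45.2 ± 10.98% in PBMC and 46.1 ± 16.7% in PBMC-hCG mice, and most of the rest was Fos. JUN transcripts came to 289 ± 34.4, 436 ± 47.2, 435 ± 114 and 367 ± 58.3 TPM in the same order. Junb made up 29.6 ± 8.26% of the JUN sum in control, 44.2 ± 7.44% in IF, 38.6 ± 8.03% in PBMC and 32.8 ± 4.25% in PBMC-hCG mice, and Jund went from the largest share in control (38.8 ± 4.72%) to 30.9 ± 2.11% in IF mice. These shares follow from the levels above and were not tested.

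The genes also varied together between mice of the same group. After each group mean was subtracted, all 36 pairs of the 9 genes were positively correlated over the 20 libraries, with a median Pearson r of 0.569 and 25 pairs over 0.5. The closest pair was Fos and Egr1 (r = 0.909), followed by Fosb and Atf3 (0.831) and Fos and Junb (0.799). Fosl2 went most closely with Egr3 (0.775) and least with Jun (0.143) and Egr1 (0.235). These values are descriptive, since the 20 points share 4 group means and each pair comes from the same libraries. How many pairs of other genes lie over 0.5 was not counted. In PBMC replicate 5, all 9 genes lay above the group mean, whereas in PBMC replicate 1, PBMC-hCG replicate 3 and control replicate 3 none did. Control replicates 4 and 5 and PBMC-hCG replicate 2 each had 8 of the 9 genes above the mean of their group.

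**Figure D3:**
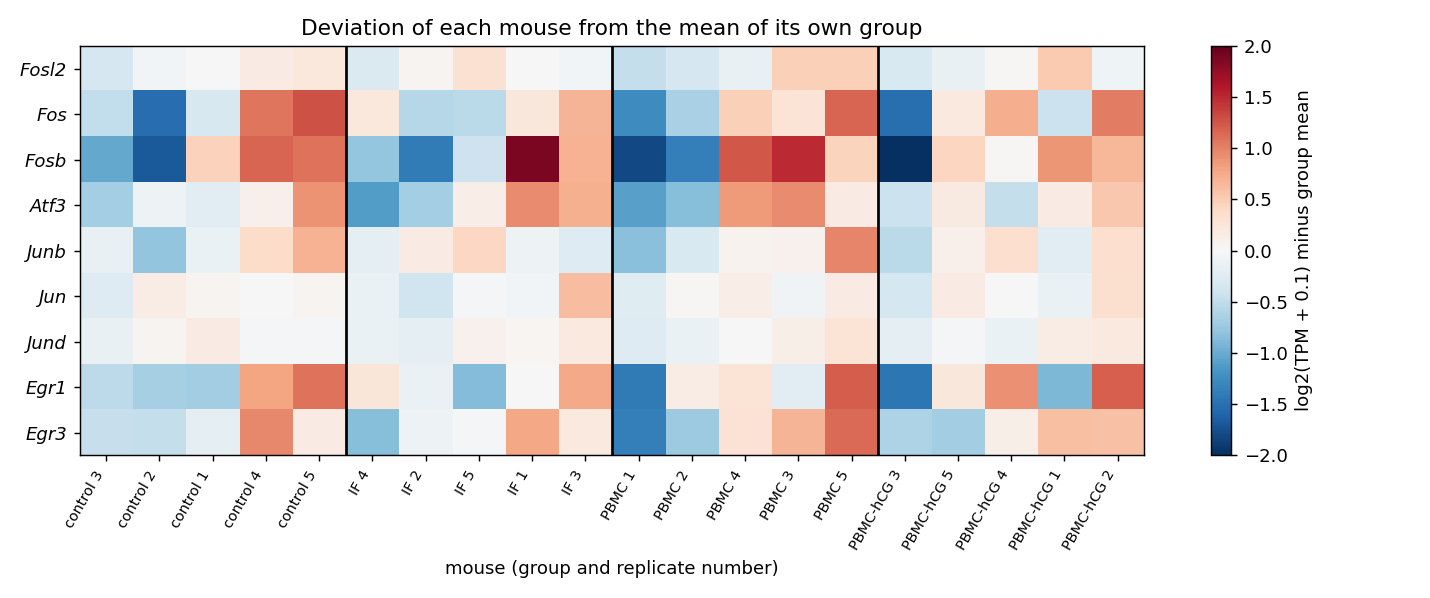
Deviation of each mouse (columns, ordered within each group by the mean standardised deviation over the 9 genes) from the mean of its own group, on the log2(TPM + 0.1) scale (colour), for the 9 tested genes (rows). Columns tend to be of one colour, with PBMC replicate 5 red and PBMC replicate 1 blue in all 9 genes, and Fosb, Fos and Egr1 have the strongest colours.

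**Figure D4:**
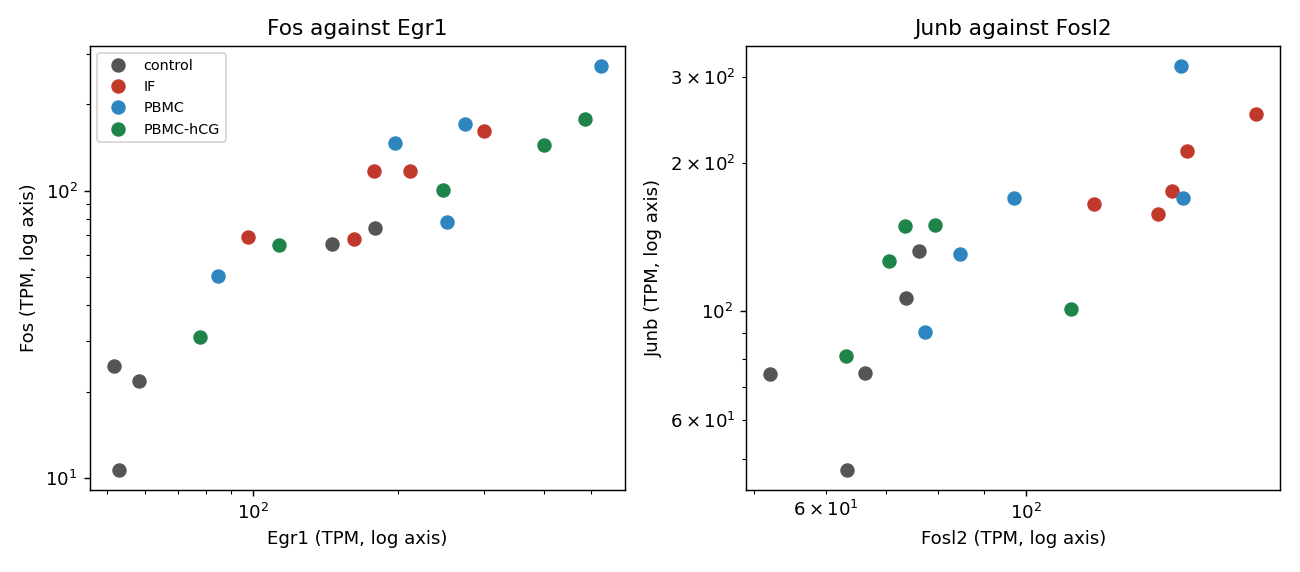
TPM of Fos against Egr1 (left) and of Junb against Fosl2 (right) in each of the 20 mice on log axes, coloured by group. Fos and Egr1 rise together in every group (within-group r = 0.909), while in the right panel the IF mice (red) lie apart from the control mice (grey) on both axes.

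Among the non-members that most resembled the mean of the 9 genes over the same 20 libraries, group means removed, were Nr4a1 (r = 0.924), Egr2 (0.881), Btg2 (0.878), Dusp1 (0.875), Thbs1 (0.844), Prdm1 (0.830) and Zfp36 (0.807). Nr4a1, an orphan nuclear receptor, rose in IF mice (log2 fold change 1.86, adjusted p = 0.0447). Btg2 is an antiproliferative factor, Dusp1 a phosphatase of MAP kinases and Zfp36 (tristetraprolin) a protein that destabilises AU-rich transcripts, and these 3 together with Nr4a1 and Egr2 were on a list of 25 other tested immediate early genes. Thbs1 encodes the matrix protein thrombospondin 1 and Prdm1 a transcriptional repressor. Over that list the median r was 0.610, and 16 of the 25 were over 0.5, compared with a median of -0.06 and 402 of 18697 over all tested non-members. Heat shock genes, which respond to stress of cells and tissue, had a median r of 0.336 (0.2 to 0.652), with 2 of 9 over 0.5. The medians were between -0.32 and 0.07 for the lists of epithelial, stromal, smooth muscle, endothelial, leukocyte, red cell and ovary or oviduct markers, and no marker of them was over 0.5.

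Of the other immediate early genes, 8 of 25 rose and 1 fell in IF mice against control, where 13.4% of all tested genes were higher and 1595 of the 18706 were lower, with a median log2 fold change of 0.67 beside 0.02 over all tested genes. Zfp36l2 (log2 fold change 1.08), Ier3 (1.02), Sgk1 (0.79) and Zfp36l1 (0.58) were among those that rose, and Myc, the cell growth regulator, was the one that fell, from 113 ± 12.0 to 54.8 ± 3.88 TPM (log2 fold change -1.04, adjusted p = 5.14e-07). In PBMC-hCG mice none rose and 3 of the 25 fell against IF, where 5.99% of all tested genes were lower and 1423 of the 18706 were higher. They were Sgk1, a kinase under glucocorticoid and mineralocorticoid control, by 1.06, Trib1, a pseudokinase, by 0.87, and Ier3, a regulator of cell survival, by 0.76 on the log2 scale. Egr2 had log2 fold changes of 1.36 between IF and control (adjusted p = 0.0817) and -0.63 between PBMC-hCG and IF (adjusted p = 0.422).

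Among 13 further basic leucine zipper genes that can pair with AP-1 proteins, 8 rose in IF mice and none fell (13.4% of all tested genes were higher). Batf, a partner of JUN proteins in lymphocytes, went from 10.9 ± 1.19 to 24.8 ± 4.80 TPM (log2 fold change 1.16, adjusted p = 0.000158), Maf rose by 0.83, Mafk by 0.51 and Jdp2, a repressor of AP-1, by 0.31. Against IF (5.99% of all tested genes lower), Maff fell by 1.01, Atf4, the main factor of the integrated stress response, by 0.56 and Atf5 by 0.35 in PBMC-hCG mice. Atf7 was the 1 gene that rose (log2 fold change 0.31), where 1423 of the 18706 tested genes were higher. Of 17 kinases and factors upstream of immediate early genes, 7 rose in IF mice (13.4% of all tested genes) and 1 fell (1595 of 18706), the kinase gene Rps6ka2 (log2 fold change -0.29). Those that rose included Map2k1, which encodes the ERK kinase MEK1, at 0.47, Mrtfa and Elk4, partners of serum response factor, at 0.42 each, and Mapk8, which encodes the JUN kinase JNK1, at 0.30 on the log2 scale. In PBMC-hCG mice against IF, 2 of the 17 fell, Map2k1 by 0.42 and Mrtfa by 0.35, where 5.99% of all tested genes were lower. Mrtfb was the 1 gene that rose (0.51), where 1423 of the 18706 were higher. Since mRNA was measured, the activity of these kinases is unknown.

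Of 12 feedback regulators of ERK and EGR signalling, 6 rose and none fell in IF mice, again beside 13.4% of all tested genes higher. Nab2, a corepressor of EGR proteins that is itself induced by them, went from 59.1 ± 12.1 to 104 ± 14.2 TPM (log2 fold change 0.83, adjusted p = 0.000937), Spry2 rose by 0.55, Spry1 by 0.43 and Spred1 by 0.26. In PBMC-hCG mice 3 of the 12 fell against IF (5.99% of all tested genes), namely Spry4 by 1.02, the ERK phosphatase Dusp6 by 0.71 and Nab2 by 0.62. Among 13 genes described as AP-1 targets, 10 were tested, while Mmp10, Mmp13 and Il6 were at 0 in some library. In IF mice 2 of the 10 rose, beside 13.4% of all tested genes higher, and 1 fell, beside 1595 of the 18706 lower. Plau, the urokinase plasminogen activator, rose from 24.6 ± 5.51 to 68.3 ± 18.3 TPM (log2 fold change 1.46, adjusted p = 0.000109). Vegfa, the vascular growth factor, rose from 82.6 ± 6.20 to 171 ± 26.1 TPM (log2 fold change 1.03, adjusted p = 0.000443). The 1 that fell was Ccnd1, the G1 cyclin, by 0.97. Against IF, 4 of the 10 fell in PBMC-hCG mice and none rose, beside 5.99% of all tested genes lower. They were Ptgs2, the inducible prostaglandin synthase, by 1.87, Plau by 1.25, Vegfa by 0.81 and Plaur, the receptor of urokinase, by 0.78. In PBMC mice no gene of these 5 lists was called against IF, nor was any between PBMC-hCG and PBMC mice. Of the 9 heat shock genes, Hspe1 fell in IF mice (log2 fold change -0.48, adjusted p = 0.0179), where 1595 of the 18706 tested genes were lower. None of them rose, and none was called between PBMC-hCG and IF. The calls against IF in PBMC-hCG mice rest on the same 10 mice as that of Fosl2, and the count over all genes fell to between 0 and 34 without any of 7 of them.

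Some markers of cell types also differed between the groups. The stromal sum (5 markers) lay at 5974 to 6948 TPM in IF mice against 4144 to 5572 TPM in controls, and that of 3 endothelial markers at 346 to 376 and 222 to 300 TPM, without overlap in either case. Of the 5 stromal markers, Dcn rose from a mean of 1750 to 3146 TPM and Hoxa10 fell from 259 to 139 TPM in IF mice. Vim (1360 in control and 1629 TPM in IF mice), Pdgfra (141 and 129 TPM) and Col1a1 (1646 and 1600 TPM) were not called. The higher stromal sum was thus mostly that of Dcn, while the means of Pdgfra, Col1a1 and Hoxa10 were lower. All 3 endothelial markers (Pecam1, Cdh5 and Kdr) rose. Epithelial markers (6) summed to 728 to 937 and 494 to 868 TPM, with 4 higher and Foxa2 lower, smooth muscle markers (5) to 3517 to 4896 and 3449 to 7583 TPM, with Acta2 lower, and leukocyte markers (9) to 596 to 853 and 609 to 811 TPM, with Ptprc, Csf1r and S100a9 higher. The 4 markers of ovary and oviduct summed to 18.3 to 35.7 TPM in IF and 31.3 to 41.5 TPM in control mice, with Ovgp1 lower. Between PBMC-hCG and IF mice, stromal sums were 6932 to 7675 against 5974 to 6948 TPM and endothelial sums 373 to 428 against 346 to 376 TPM, Krt8, Pdgfra and Hoxa10 were higher (adjusted p of 0.0392, 0.0403 and 0.0471), and Hba-a2 and Hbb-bs were lower, with red cell sums (4 markers) of 340 to 875 against 638 to 1797 TPM. No defining marker of a listed cell type was at 0 in every library. The part of cell composition in the differences of Fosl2, Junb, Fos and Egr3 was not tested.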

How the data were processed

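The authors deposited a table of TPM per gene. According to the study's methods and the submitters' processing notes, TruSeq stranded mRNA libraries were sequenced, reads were trimmed with Trimmomatic, aligned to mm10 with HISAT2 and assembled with StringTie, with versions not given in the sources used here. The authors tested TMM-normalized counts with the exact test of edgeR, and that test needs counts. Because TPM hold no read depth, no counting error is given.

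Groups and replicate numbers were taken from the sample titles, and doses and times from the labels and the study's methods. Values were transformed to log2(TPM + 0.1), which draws fold changes of low genes toward 0. Genes above 0 TPM in every library (18706) were fitted together with limma 3.58.1 (variance trend, all 4 groups) in R 4.3.3, with data.table (version 1.17.8) for reading, and two-sided p-values were corrected after Benjamini and Hochberg over all of them within each of 6 comparisons. The fit was tested on simulated data. Levels and figures were made in Python 3.11.15 with matplotlib 3.10.9. Positions and promoters are those of RefSeq on GRCm38.p6. Replicates were separate mice.

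The 10 genes and the further gene lists were chosen with earlier results of these data known. All 10 genes were named. From each further list the rule took up to 4 genes with the lowest adjusted p in IF versus control and in PBMC-hCG versus IF, and the genes most like the members were the 8 with the highest within-group correlation, of which 1 is not reported here. Other genes, such as Egr2, were named after their values had been seen. Same-numbered mice did not deviate together in most pairs (8 of 30 correlations over 0.1), so replicate numbers were not used as pairs. Protein sequences were not used here.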

Additional observations from a re-analysis of the deposited data

Results flagged for a closer look

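Of 40 sets of 5 mice (10 genes in 4 groups), 1 held a mouse far from the others of its group by Dixon's criterion. In the PBMC-hCG group, Fosl1 was at 0.394 TPM in replicate 1, while the other 4 mice lay between 0 and 0.00515 TPM. The same mouse had the highest Fosl2 value of its group. Chance flags about 1 in 20 such sets.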

How the results depend on the processing

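The rises of Fosl2, Junb and Egr3 in IF mice kept their direction and passed in all 9 other settings (2 pseudocounts, 2 filters, 2 scalings, a fit of 2 groups, no variance trend and the replicate block) and with each of the 10 mice left out. That of Fos was lost with the filter of above 0 TPM in at least 1 library (adjusted p = 0.0552). The number of the 9 genes called in IF versus control was 3 to 5 with a mouse left out. For PBMC-hCG versus IF it was 2 when only these groups were fitted and 0 to 2 with a mouse left out (0 without IF replicate 2, 4 or 5 or PBMC-hCG replicate 2, 3, 4 or 5). For PBMC versus control it was 3 to 7 with a mouse left out, 3 without PBMC replicate 5, and 4 with the relaxed filter, either scaling, only the 2 groups fitted or no variance trend. For PBMC-hCG versus control the count of 2 became 1 with the filter of above 0 TPM in at least 1 library, with only the 2 groups fitted and with no variance trend, 0 with the median log2 ratio scaling, and 0 to 3 with a mouse left out (0 without control replicate 3 or PBMC-hCG replicate 2 or 5). The cause was not tested. Over all genes, the 1423 higher and 1121 lower calls between PBMC-hCG and IF became 812 in all with the relaxed filter and 0 to 5061 with a mouse left out, and the 2509 higher and 1595 lower calls between IF and control became 2473 in all with only those groups fitted.

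Signs turned only with a mouse left out and only in differences that had not passed. The log2 fold changes with a mouse left out ranged from -0.25 to 0.57 for Fosb and -0.17 to 0.34 for Atf3 between IF and control, from -0.019 to 0.59 for Fos and -0.042 to 0.090 for Jund between PBMC and IF, from -0.45 to 0.18 for Fos, -0.032 to 0.81 for Fosb and -0.053 to 0.61 for Egr1 between PBMC-hCG and IF, from -0.043 to 0.13 for Jun and -0.46 to 0.26 for Egr1 between PBMC-hCG and PBMC, and from -0.37 to 0.024 for Atf3 between PBMC-hCG and control.

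Same-numbered mice were not paired by the design, and of 30 same-number pairs 8 had correlated deviations over 0.1 (-0.25 to 0.46), among them replicate 5 of control, IF and PBMC (0.27 to 0.46). With the replicate block, the counts were 4, 0, 1, 0, 5 and 3 in the 6 comparisons, in the order IF versus control, PBMC versus IF, PBMC-hCG versus IF, PBMC-hCG versus PBMC, PBMC versus control and PBMC-hCG versus control. Egr1 passed against control in PBMC (adjusted p = 0.0475) and PBMC-hCG mice (0.0446), and Jun (0.0767) and Jund (0.0647) no longer passed in PBMC mice.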
